A study of Homo sapiens with 10 samples.

Results

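PC3 cells treated for 48 hours with PRT4165 were compared with PC3 cells that stably expressed a Scramble short hairpin RNA, with 2 RNA-seq libraries in each group. These are 4 of the 10 libraries of the study. Their groups were taken from the labels, and all genes counted in them were considered, of which 18478 had enough counts to be tested. PC3 is an established human prostate cancer cell line from a bone metastasis. The study also holds PC3 cells treated for 48 hours with GW-516, a compound the labels give by this code name alone, cells that stably expressed RNF2 shRNA1, and cells labelled RNF2 shRNA2, each in 2 libraries. Its title concerns Polycomb repressive complex 1 (PRC1) in metastasis, stemness and immune suppression. All groups shared the same growth medium with fetal bovine serum, and neither a dose nor a vehicle-treated group is given in the labels. A difference between PRT4165 and Scramble therefore holds the compound, its vehicle, the hairpin vector and the separate culture together, and these cannot be told apart. Whether replicate libraries stem from different cultures, or the hairpin cells from a clone, is not in the labels, so p-values measure only the spread between these libraries, which may be technical.

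PRC1 is the Polycomb complex whose RNF2 or RING1 subunit attaches ubiquitin to histone H2A at genes that are kept silent, among them many developmental regulators such as the HOX genes. PRT4165 was described as a small molecule that blocks this ligase activity, so it is aimed at the enzyme and not at the transcripts of the subunits. PC3 cells are known for growth without androgen, for loss of alpha-catenin and for constitutive activity of NF-kB, a transcription factor of inflammation.

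Total counts per library were 79544492 and 69090002 with PRT4165, against 72015560 and 66126440 with Scramble, within a range of 65877850 to 108380198 over all 10 libraries. Levels are given in CPM, counts divided by the scaled library total and multiplied by 1e6. TMM scaling was used, a scaling of library totals by the bulk of the genes. Fold changes are given as log2 of PRT4165 over Scramble. The standard error (SE) beside them was worked back from the edgeR test, as the size of the log2 divided by the square root of its F value. The SE, and the intervals built from it, are therefore no direct measure of the spread between replicate libraries. The Scramble libraries differed from each other by little more than counting noise. Their chi-square per degree of freedom was 1.09 after halving for the 2 ends counted of each fragment, while it was 3.7 between the PRT4165 libraries. Of 9 tested PC3 features 4 were higher and 2 lower, with a median log2 of 0.12. EPCAM, KRT8, KRT18, VIM and CD44 were abundant, CTNNA1 for alpha-catenin was between 0.487 and 0.631 CPM in the 4 libraries, and KLK3, the prostate-specific antigen gene, had no count. Defining markers of blood cells were at or near 0, with no count for CD3E, MS4A1, CD163 and NKG7 and a highest level of 0.167 CPM for PTPRC, although CD33 stood at 18.8 ± 0.224 CPM with PRT4165 and 20.1 ± 0.708 CPM with Scramble (SD, n = 2 each). The libraries labelled RNF2 shRNA2, in which RNF2 was not lower than in Scramble, entered no test between groups beyond the shared estimate of the spread, their levels are given as a description, and without them 8270 genes were called.

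With PRT4165, 598 genes were at least 2-fold higher and 282 at least 2-fold lower than with Scramble, which is 3.24% and 1.53% of the genes tested. The mucin genes MUC5AC and MUC5B, the cytokine genes IL1B and CCL20, the fatty acid carrier gene FABP4 and the keratin genes KRT6A and KRT81 were among the 12 largest increases. The collagenase genes MMP13 and MMP1 and the cadherin gene CDH11 were among the 12 largest decreases. At an edgeR adjusted p below 0.05 with no minimum fold, 7695 genes were called, 41.6% of those tested, with 3681 higher (19.9%) and 4014 lower (21.7%). The median log2 over all genes tested was -0.012. With so large a share of all genes called, most calls are of small size, and the counts of each gene group below are read against these shares. When the nearly identical libraries within Scramble, within GW-516 and within RNF2 shRNA1 were summed to 1 sample per group, the fit left 4911 genes called, of which 4896 were calls of the same direction.

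**Figure D1:**
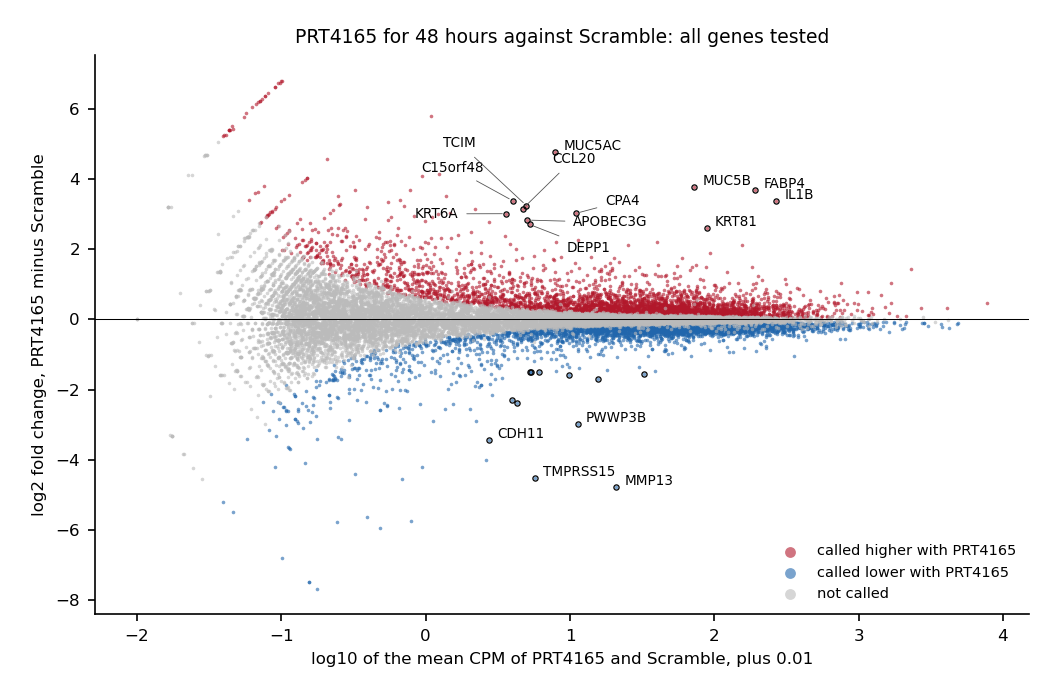
Log2 fold change of PRT4165 over Scramble (vertical axis) against the log10 mean CPM of both groups plus 0.01 (horizontal axis) for the 18478 genes tested, red for the 3681 called higher, blue for the 4014 called lower and grey for the rest. Open circles mark the 12 largest increases and 12 largest decreases among genes at 5 CPM or more in 1 group. Points on the slanted lines at the left edge have no count in 1 group, and their log2 value depends on a small count added by the fit.

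MUC5AC, IL1B, FABP4 and MMP13, which serve as markers of this response, differed far beyond the spread of the libraries. MUC5AC, which codes for a secreted mucin that forms the gel of airway and stomach mucus, had 14.7 and 15.8 CPM in the PRT4165 libraries, against 0.474 and 0.639 CPM in the Scramble libraries (27.5-fold, log2 4.78 ± 0.15 SE, edgeR adjusted p = 2.8e-18). IL1B, the gene of the inflammatory cytokine interleukin 1 beta, had 496 and 478 CPM in the PRT4165 libraries, against 45.7 and 48.04 CPM in the Scramble libraries (log2 3.38 ± 0.038 SE, edgeR adjusted p = 3.8e-27). FABP4, a carrier of fatty acids known from fat cells and macrophages and a target of the nuclear receptor PPAR gamma, had 356 and 353 CPM in the PRT4165 libraries, against 27.6 and 27.5 CPM in the Scramble libraries (log2 3.68 ± 0.044 SE, edgeR adjusted p = 8.6e-26). In all 3 genes both PRT4165 libraries lay far above both Scramble libraries, and the replicates differed by a few percent in FABP4 and IL1B. MMP13, collagenase 3, had 1.75 and 1.15 CPM in the PRT4165 libraries, against 40.9 and 39.97 CPM in the Scramble libraries, which is 27.5-fold lower (log2 -4.78 ± 0.10 SE, edgeR adjusted p = 1.0e-20). The PRT4165 libraries of MMP13 differed from each other by 0.56 on the log2 scale, much less than the distance to either Scramble library.

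Among the 12 largest increases, MUC5B, the second gel-forming mucin gene beside MUC5AC on the chromosome, had 129 and 141 CPM with PRT4165, against 9.91 and 9.898 CPM with Scramble (log2 3.77 ± 0.054 SE, edgeR adjusted p = 6.1e-25). C15orf48, which codes for a small mitochondrial protein of respiratory complex IV, had 7.22 and 7.44 CPM with PRT4165, against 0.6699 and 0.7298 CPM with Scramble (log2 3.39 ± 0.15 SE, edgeR adjusted p = 6.2e-15). CCL20, the ligand of the chemokine receptor CCR6, had 8.14 and 8.74 CPM with PRT4165, against 1.12 and 0.7602 CPM with Scramble (log2 3.16 ± 0.16 SE, edgeR adjusted p = 2.7e-14). C15orf48 and CCL20 were near 1 CPM or lower with Scramble. In all 3 genes each PRT4165 library was above both Scramble libraries, as the choice of the 12 largest increases required. CPA4, a secreted carboxypeptidase, had 18.9 and 20.3 CPM with PRT4165, against 2.46 and 2.33 CPM with Scramble (log2 3.03 ± 0.082 SE, edgeR adjusted p = 2.4e-19). APOBEC3G, a cytidine deaminase that restricts retroviruses, had 8.996 and 8.78 CPM with PRT4165, against 1.38 and 1.09 CPM with Scramble (log2 2.84 ± 0.13 SE, edgeR adjusted p = 1.1e-14). TCIM and DEPP1 were higher by log2 3.25 ± 0.14 and 2.71 ± 0.14. The keratin genes KRT6A, known from wounded and stressed epithelium, and KRT81, a hair keratin, were higher by log2 3.02 ± 0.15 and 2.61 ± 0.054, with the limit that both have near-identical neighbours whose reads the counting could have split. KRT81 was the more firmly counted of them, with 145 and 159 CPM with PRT4165, against 25.9 and 23.8 CPM with Scramble.

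Among the 12 largest decreases, TMPRSS15, the enteropeptidase gene, had 0.543 and 0.389 CPM with PRT4165, against 11 and 10.9 CPM with Scramble (log2 -4.54 ± 0.16 SE, edgeR adjusted p = 6.8e-17). CDH11, a cadherin of mesenchymal and bone-forming cells, had 0.391 and 0.548 CPM with PRT4165, against 5.65 and 4.41 CPM with Scramble (log2 -3.43 ± 0.21 SE, edgeR adjusted p = 2.5e-12). PWWP3B had 2.801 and 2.19 CPM with PRT4165, against 19.6 and 20.5 CPM with Scramble (log2 -2.997 ± 0.11 SE, edgeR adjusted p = 6.1e-17). In none of these 3 was the low level found with PRT4165 alone. TMPRSS15 averaged 0.353 CPM with GW-516, 7.25 CPM with RNF2 shRNA1 and 0.284 CPM in the libraries labelled RNF2 shRNA2. CDH11 averaged 0.626 CPM with GW-516, 1.09 CPM with RNF2 shRNA1 and 0.807 CPM in the libraries labelled RNF2 shRNA2, so that Scramble stood above every other group. PWWP3B averaged 2.25 CPM with GW-516, 7.75 CPM with RNF2 shRNA1 and 2.29 CPM in the libraries labelled RNF2 shRNA2. MMP1, interstitial collagenase, had 7.27 and 7.49 CPM with PRT4165, against 24.9 and 23.1 CPM with Scramble (log2 -1.704 ± 0.063 SE, edgeR adjusted p = 1.3e-16), and the other groups were near Scramble, with 28.9 CPM with GW-516, 19.9 CPM with RNF2 shRNA1 and 27.97 CPM in the libraries labelled RNF2 shRNA2. PTN, the gene of the heparin-binding growth factor pleiotrophin, had 1.29 and 1.38 CPM with PRT4165, against 6.25 and 6.98 CPM with Scramble (log2 -2.31 ± 0.14 SE, edgeR adjusted p = 2.3e-12). CCL2, the chemokine that attracts monocytes, had 5.49 and 4.298 CPM with PRT4165, against 14.6 and 14.7 CPM with Scramble (log2 -1.58 ± 0.10 SE, edgeR adjusted p = 1.3e-11). C5, the complement component that is cleaved into an attractant of neutrophils, had 16.97 and 15.9 CPM with PRT4165, against 48.3 and 48.4 CPM with Scramble (log2 -1.56 ± 0.050 SE, edgeR adjusted p = 7.9e-18). CDH12, a cadherin known from the nervous system, DNAH7, an axonemal dynein gene, STUM and the antisense RNA gene TMEM108-AS1 were lower by log2 -1.503, -1.51, -1.51 and -2.39, all with an edgeR adjusted p of 2.6e-10 or smaller. PTN, CCL2, STUM and CDH12 were not low with PRT4165 alone either. With GW-516, PTN averaged 0.853, CCL2 4.78 and STUM 2.49 CPM. With RNF2 shRNA1, CCL2 averaged 3.85, STUM 2.63 and CDH12 2.91 CPM. C5, DNAH7 and TMEM108-AS1 had their lowest group mean with PRT4165.

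**Figure D2:**
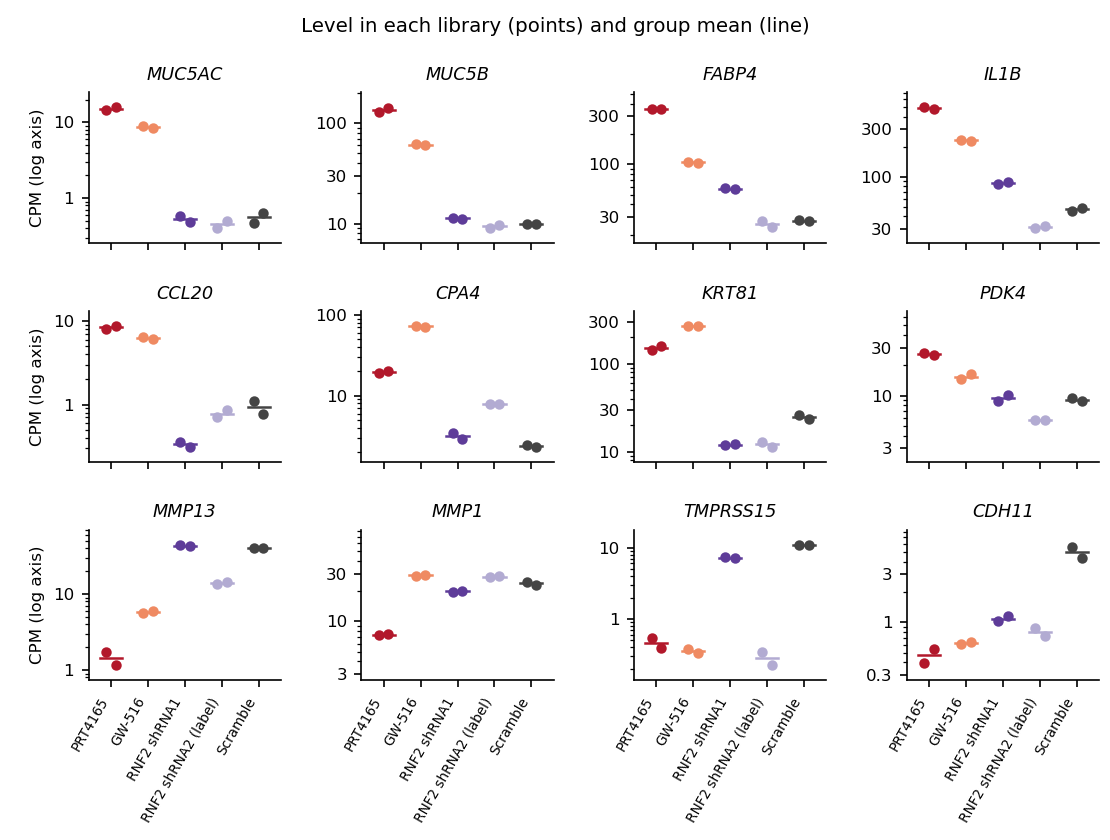
CPM of 12 genes on log axes in each of the 10 libraries, with a line at the mean of each group of 2. The PRT4165 points lie above all others in MUC5AC, MUC5B, FABP4, IL1B and PDK4 and below all others in MMP13 and MMP1, while GW-516 is higher in CPA4 and KRT81, and TMPRSS15 and CDH11 are low in several groups.

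Sequences around the start sites of 4 of these genes are shown because 3 hold a match to a motif of AP-1 or NF-kB, transcription factors that many cytokine and protease genes are known to respond to, and IL1B, the marker gene, holds none. The windows of CSF2, IL36G, BCL2A1, PDK4, ANGPTL4 and AKR1C1 were searched as well and held no match. The genes with a match were thus picked for it, and the sequences shown do not give the share with a motif. They are RefSeq promoter windows on GRCh38.p14, from 250 bases before to 50 bases after the start, on the strand of the gene and with the matches in capitals.
CPA4 (chr7:130292911-130293210, plus strand): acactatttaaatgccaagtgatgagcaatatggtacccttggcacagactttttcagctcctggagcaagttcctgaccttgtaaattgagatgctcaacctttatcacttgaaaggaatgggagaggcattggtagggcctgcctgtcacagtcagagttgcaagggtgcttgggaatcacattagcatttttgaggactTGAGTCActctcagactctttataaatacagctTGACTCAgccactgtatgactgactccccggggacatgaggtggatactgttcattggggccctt
CCL20 (chr2:227813592-227813891, plus strand): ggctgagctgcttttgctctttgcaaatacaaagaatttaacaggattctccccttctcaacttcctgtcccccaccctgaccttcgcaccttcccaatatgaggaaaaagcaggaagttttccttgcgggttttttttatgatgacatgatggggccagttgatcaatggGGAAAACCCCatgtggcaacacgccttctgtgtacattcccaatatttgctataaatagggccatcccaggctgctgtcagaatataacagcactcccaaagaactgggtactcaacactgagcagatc
TMPRSS15 (chr21:18403736-18404035, minus strand): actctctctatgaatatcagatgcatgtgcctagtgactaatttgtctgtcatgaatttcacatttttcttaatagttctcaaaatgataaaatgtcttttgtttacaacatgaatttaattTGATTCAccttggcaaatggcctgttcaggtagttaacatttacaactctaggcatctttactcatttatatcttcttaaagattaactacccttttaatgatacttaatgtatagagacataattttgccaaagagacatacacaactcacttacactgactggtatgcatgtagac
IL1B (chr2:112836730-112837029, minus strand): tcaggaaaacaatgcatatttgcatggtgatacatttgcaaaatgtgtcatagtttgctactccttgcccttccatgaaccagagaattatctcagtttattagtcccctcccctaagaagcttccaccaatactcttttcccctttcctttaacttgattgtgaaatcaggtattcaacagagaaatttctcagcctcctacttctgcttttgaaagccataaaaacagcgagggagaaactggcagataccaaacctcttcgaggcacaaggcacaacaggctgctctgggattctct
Counted from the start site, the AP-1 motif TGANTCA, which reads the same on both strands, lies at -48 to -42 and at -15 to -9 in CPA4 and at -128 to -122 in TMPRSS15. The NF-kB motif, searched on both strands, lies at -79 to -70 in CCL20. Of 17393 windows of 12064 tested genes, 5.8% held the AP-1 motif and 13.2% the NF-kB motif. Among 488 windows of genes at least 2-fold higher with PRT4165 these shares were 9.6% and 11.5%, and among 271 windows of genes at least 2-fold lower they were 11.4% and 12.5%. The AP-1 share was thus above that of all windows on both sides of the response and the NF-kB share on neither, as a description of letters and not of binding.

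None of the main PRC1 ligase transcripts passed the test. RNF2 had 29.1 and 29.1 CPM with PRT4165, against 30.6 and 28.3 CPM with Scramble (log2 -0.018, 95% interval -0.13 to 0.092, edgeR adjusted p = 0.82), and its paralog RING1 had 12.9 and 12.9 CPM with PRT4165, against 13.6 and 14.03 CPM with Scramble (log2 -0.10, edgeR adjusted p = 0.32). BMI1, the PCGF subunit that pairs with them in canonical PRC1, had 257 and 245 CPM with PRT4165, against 251 and 255 CPM with Scramble (log2 -0.012, edgeR adjusted p = 0.88). Of 22 PRC1 genes tested, 3 were higher and 6 lower, with a median log2 of -0.090. Among these, BCORL1, a co-repressor of a variant PRC1, rose (log2 0.80, edgeR adjusted p = 1.2e-11), and PHC1, L3MBTL2 and PCGF6 fell by 0.62, 0.45 and 0.44 on the log2 scale. The count of higher members was 1 without Scramble replicate 2. The methylating complex PRC2 gave 3 higher and 5 lower, with a median log2 of -0.14 over 12 genes. Its catalytic subunit EZH2 had 57.2 and 53.7 CPM with PRT4165, against 75.9 and 75.3 CPM with Scramble (log2 -0.45, edgeR adjusted p = 2.3e-09), PHF19, RBBP4 and SUZ12 fell as well (-0.42, -0.37 and -0.33 on the log2 scale), and the paralog EZH1, picked after its value was seen, rose by 0.20, a call lost without PRT4165 replicate 2 (edgeR adjusted p = 0.0551) or Scramble replicate 2 (0.0541). As with PRC1, the count of higher members was 1 without Scramble replicate 2.

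Of 32 developmental regulators that Polycomb is known to hold silent, 11 were higher and 6 lower, with a median log2 of 0.060, beside -0.012 over all genes. Without Scramble replicate 1, 3 were lower. HOXB13, the homeobox factor of the prostate, was 2.05-fold lower, at 230.4 and 240.2 CPM with PRT4165, against 487 and 478 CPM with Scramble (log2 -1.04, edgeR adjusted p = 5.3e-19). Scramble was its highest group, with means of 200.5 CPM with GW-516, 333 CPM with RNF2 shRNA1 and 347 CPM in the libraries labelled RNF2 shRNA2. FOXA1, a pioneer factor of luminal prostate cells listed with the luminal prostate genes, had 93.7 and 87.5 CPM with PRT4165, against 157 and 156 CPM with Scramble (log2 -0.79, edgeR adjusted p = 1.1e-14). GATA6 and SOX21 were higher by log2 0.60 and 0.62, and HOXA13 was lower by -0.53. FOXA2 did not pass (log2 0.11, edgeR adjusted p = 0.18). HOXB2, HOXC10, GATA4, SOX17 and FOXF1 had no count in any of the 4 libraries.

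Within the HOXA cluster on chromosome 7, which was looked at after its values were seen, the calls split by position. Genes called toward its 3' end were higher and included the long noncoding RNA HOTAIRM1 (13.7 and 14.05 CPM with PRT4165, against 6.99 and 7.47 CPM with Scramble, log2 0.94), HOXA3 (log2 0.45), HOXA5 (62 and 55 counts with PRT4165, against 10 and 9 counts with Scramble, log2 2.497) and HOXA6 (log2 3.03). Those toward the 5' end that were called were lower: HOXA10 (12.5 and 13.5 CPM with PRT4165, against 20.2 and 18.4 CPM with Scramble, log2 -0.57), HOXA11-AS (-0.31), HOXA13 (41.3 and 40.9 CPM with PRT4165, against 60.3 and 58.4 CPM with Scramble) and HOTTIP (-0.38). HOXA9 and HOXA11 were among those that did not pass. Some of these calls rested on 1 library: HOXA3 had an edgeR adjusted p of 0.0969 and HOTTIP 0.0551 without Scramble replicate 1, HOXA11-AS 0.0569 without Scramble replicate 2, and HOXA11 0.0087 without PRT4165 replicate 2. Of the higher genes, HOXA5 and HOXA6 had few counts, while HOTAIRM1 had 1082 and 974 and HOXA3 487 and 467 counts with PRT4165. Overlapping transcripts within the cluster could not be told apart beyond their strand. In HOXA10 and HOXA13 Scramble had the highest mean of all groups. HOXA10 averaged 16.2 CPM with GW-516, 12.8 CPM with RNF2 shRNA1 and 13.3 CPM in the libraries labelled RNF2 shRNA2. HOXA13 averaged 35.5, 41.4 and 34.1 CPM in the same 3 groups. HOXA11-AS was highest with GW-516. So were HOTAIRM1, HOXA5 and HOXA6, with means of 21.6, 0.9996 and 0.412 CPM, against 13.85, 0.788 and 0.369 CPM with PRT4165. HOTAIRM1 averaged 12.3 CPM with RNF2 shRNA1. HOXA3 had its highest mean with PRT4165.

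**Figure D3:**
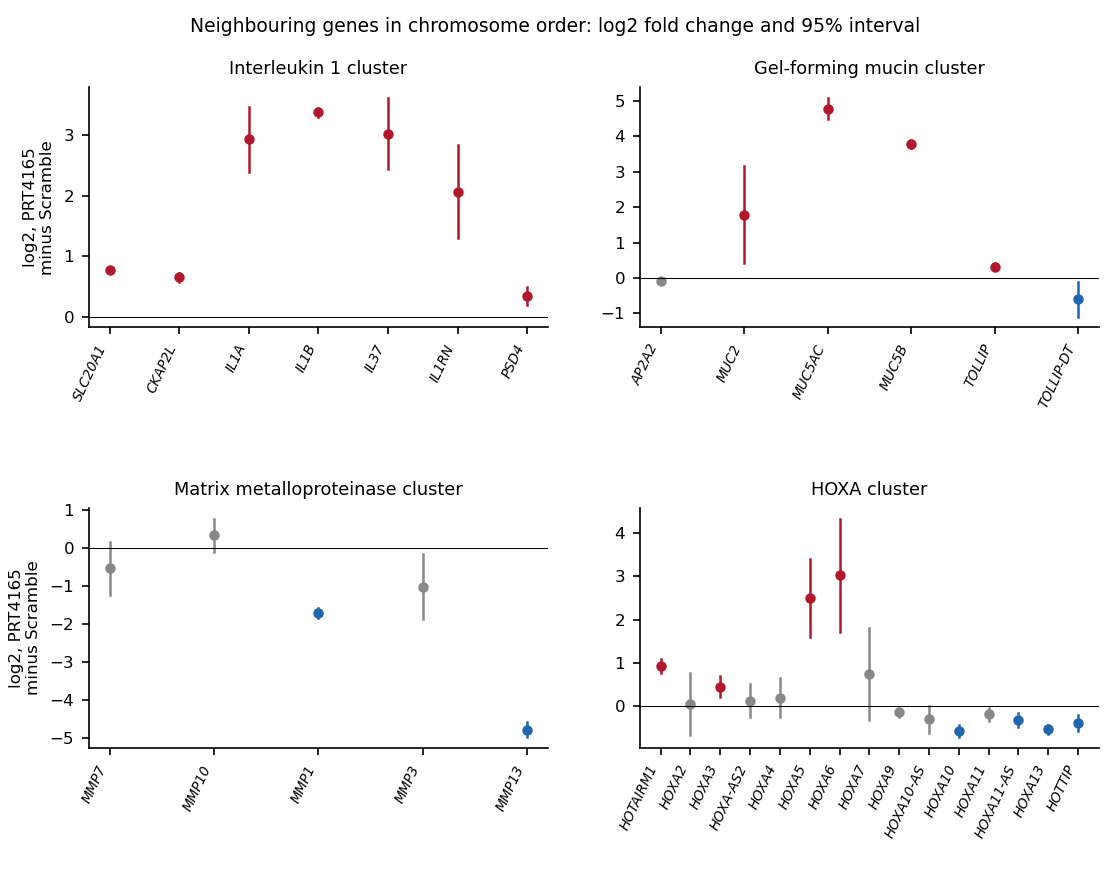
Log2 fold change of PRT4165 over Scramble with its 95% interval for genes of 4 chromosome regions, drawn in chromosome order with equal spacing; red and blue mark genes called higher and lower, grey those not called, and IL36G, with no Scramble count, is left out, and some genes are not drawn. The interleukin 1 genes and the mucin genes stand above their flanking genes, only MMP1 and MMP13 are called in the protease cluster, and the HOXA calls change sign along the cluster.

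Mucus and innate defence genes gave some of the largest values of the response. Of 16 mucin and mucin glycosylation genes tested, 8 were higher and 3 lower, with a median log2 of 0.47. Besides MUC5AC and MUC5B, the transferases GALNT12 and GALNT3, which start O-linked sugar chains on mucins, rose to 45.8 and 35.8 CPM with PRT4165, against 19.1 and 15.2 CPM with Scramble (log2 1.26 and 1.23). The 3 lower members, named after their values were seen, were the secretory cell factor SPDEF (log2 -1.18, edgeR adjusted p = 1.5e-08), the cell surface mucin MUC13 (log2 -0.80, edgeR adjusted p = 2.4e-10) and AGR2, a chaperone of mucin folding (log2 -0.49, edgeR adjusted p = 3.5e-08). MUC2 rose on 12 and 18 counts with PRT4165, against 6 and 2 counts with Scramble, a call lost without PRT4165 replicate 2 (edgeR adjusted p = 0.207) or Scramble replicate 2 (0.22). MUC6, in the same cluster on chromosome 11, had 2 counts in all, and of the flanking genes AP2A2 was not called (log2 -0.10, edgeR adjusted p = 0.068, and 0.00388 without PRT4165 replicate 2) and TOLLIP was higher by log2 0.32. Of 8 epithelial defence genes tested, 4 were higher and 1 lower, with a median log2 of 0.81. C3, the central complement component, had 66.5 and 66.1 CPM with PRT4165, against 14.4 and 13.9 CPM with Scramble (log2 2.23 ± 0.056 SE, edgeR adjusted p = 7.3e-20). LCN2, which withholds iron from bacteria, had 191 and 193 CPM with PRT4165, against 106 and 109 CPM with Scramble (log2 0.83, edgeR adjusted p = 1.0e-10), SLPI, a protease inhibitor of mucosal fluids, was higher by log2 0.45, and SAA1, an acute phase protein, by 1.34 at a low level. The single lower member, PI3, did not pass when any 1 of the 4 libraries was left out.

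The interleukin 1 family has 2 agonists of one receptor, a receptor antagonist and several relatives in a cluster on chromosome 2. Of 21 family and receptor genes tested, 11 were higher and 4 lower, with a median log2 of 0.19. IL1A had 145 and 144 counts with PRT4165, against 16 and 19 counts with Scramble (log2 2.93 ± 0.26 SE, edgeR adjusted p = 1.5e-09), and IL37, a relative that dampens inflammation, had 156 and 161 counts with PRT4165, against 18 and 18 counts with Scramble (log2 3.02 ± 0.29 SE, edgeR adjusted p = 4.7e-09). Picked after their values were seen, IL1RN, the receptor antagonist, had 70 and 49 counts with PRT4165, against 12 and 14 counts with Scramble (log2 2.06 ± 0.37 SE, edgeR adjusted p = 6.3e-05), and IL36G had 17 and 10 counts with PRT4165, against 0 and 0 counts with Scramble, at least 8.26-fold higher against a floor of 3 counts over the Scramble group. The interleukin 1 family members of the cluster that could be tested were thus higher in both PRT4165 libraries. For IL36G this was set in advance, because it had no Scramble count and passed the count filter through PRT4165 and GW-516 libraries. IL36A, IL36B, IL36RN and IL1F10 had too few counts to be tested. The flanking genes SLC20A1, CKAP2L and PSD4 were higher by less, log2 0.77, 0.65 and 0.34. Of the signalling genes, the kinase IRAK2 rose (log2 0.72, edgeR adjusted p = 4.5e-12) and the receptor IL1R1 did not pass (log2 -0.81, edgeR adjusted p = 0.11). The alarmin IL33, elsewhere in the genome, fell, at 0.613 ± 0.0103 CPM with PRT4165 and 1.87 ± 0.3702 CPM with Scramble (log2 -1.61, edgeR adjusted p = 7.1e-07).

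Of 24 chemokine and cytokine genes tested, 14 were higher and 4 lower, with a median log2 of 0.71. Higher members by the naming rule were CCL20, CSF1, the growth factor of macrophages, with 9.95 and 9.33 CPM with PRT4165, against 3.14 and 3.47 CPM with Scramble (log2 1.55, edgeR adjusted p = 1.1e-11), and CXCL8, an attractant of neutrophils, with 86.6 and 85.97 CPM with PRT4165, against 44.98 and 43.9 CPM with Scramble (log2 0.96, edgeR adjusted p = 1.2e-15). LIF, a cytokine of the interleukin 6 family, rose to 38.99 CPM with PRT4165, against 21.9 CPM with Scramble. Lower members beside CCL2 included, picked after their values were seen, the interferon-induced chemokine CXCL11 with 16 and 12 counts with PRT4165, against 92 and 59 counts with Scramble and the CCL2 neighbour CCL7 with 0 and 6 counts with PRT4165, against 20 and 16 counts with Scramble. The call of CCL7 was lost without PRT4165 replicate 1 (edgeR adjusted p = 0.202), Scramble replicate 1 (0.0827) or Scramble replicate 2 (0.0576). IL6 did not pass (log2 -1.37, edgeR adjusted p = 0.3, and 0.0467 without PRT4165 replicate 2), and TNF had no count in either PRT4165 library.

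NF-kB subunits and feedback genes moved by smaller amounts, with 11 higher and 3 lower, with a median log2 of 0.11 over 26 tested. The inhibitor NFKBIA rose (log2 0.55, edgeR adjusted p = 3.8e-09), as did TNIP1, a partner of the deubiquitinase TNFAIP3 (log2 0.38, edgeR adjusted p = 1.8e-09), while NFKBIZ, a nuclear co-factor, fell (log2 -0.48, edgeR adjusted p = 6.3e-11). None of the subunit genes RELA, RELB, REL, NFKB1 and NFKB2 was called. Without Scramble replicate 2 the count of higher members was 7. Interferon-stimulated genes leaned the other way, with 10 higher and 19 lower, with a median log2 of -0.24 over 37 tested. IFIT3, IFIT1 and IFIT2, RNA-binding antiviral genes with similar sequences, fell by 0.98, 0.80 and 0.60 on the log2 scale, and OAS1, a sensor of double-stranded RNA, rose (log2 0.76, edgeR adjusted p = 1.9e-12). Without PRT4165 replicate 1 the count of higher members was 6. Of 18 genes of MHC class I antigen presentation, 3 were higher and 9 lower, with a median log2 of -0.18. HLA-B, which shares long stretches with other HLA genes, had 10.8 and 12.1 CPM with PRT4165, against 21.9 and 20.95 CPM with Scramble (log2 -0.91, edgeR adjusted p = 2.3e-10). PSMB8, a subunit of the immunoproteasome, had 5.83 and 5.94 CPM with PRT4165, against 10.7 and 10.5 CPM with Scramble (log2 -0.85, edgeR adjusted p = 5.0e-08), while ERAP2, a peptide trimmer, rose by log2 0.45.

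Proteases of the matrix divided. Of 24 metalloproteinases and inhibitors tested, 9 were higher and 3 lower, with a median log2 of 0.34, and the lower ones were MMP13, MMP1 and ADAMTS1. The MMP cluster on chromosome 11 also holds MMP7, MMP10 and MMP3, which were at 1.30 CPM or less in each PRT4165 and Scramble library and did not pass, except MMP10 without PRT4165 replicate 1 (edgeR adjusted p = 0.0429). ADAM12, a membrane protease, had 22.2 and 21.1 CPM with PRT4165, against 6.196 and 6.26 CPM with Scramble (log2 1.797, edgeR adjusted p = 1.5e-15), and ADAM19 rose by log2 0.72. In the plasminogen activator system, which makes the protease plasmin at the cell surface, 8 were higher and 2 lower, with a median log2 of 0.50, among 12 tested. Its receptor gene PLAUR had 78.8 and 80.9 CPM with PRT4165, against 50.3 and 49.1 CPM with Scramble (log2 0.68, edgeR adjusted p = 7.2e-13), the activator gene PLAU rose by log2 0.46, and S100A10, a plasminogen receptor, had 290.1 and 297 CPM with PRT4165, against 134 and 136 CPM with Scramble (log2 1.12, edgeR adjusted p = 2.0e-18). SERPINE2, an inhibitor of these enzymes, rose as well by log2 0.65, and the activator gene PLAT, picked after its value was seen, fell by 0.66 on the log2 scale. Without Scramble replicate 1, 1 member was lower.

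Of 25 early response genes, 9 were higher and 4 lower, with a median log2 of 0.17. JUN, a subunit of AP-1, had 135 and 154 CPM with PRT4165, against 77.7 and 77.4 CPM with Scramble (log2 0.90, edgeR adjusted p = 3.0e-10), and KLF6 had 108 and 112 CPM with PRT4165, against 49.2 and 49.5 CPM with Scramble (log2 1.16, edgeR adjusted p = 6.4e-18). FOSL2 rose by log2 0.50 and ATF3 by 0.25, while FOS, EGR1 and MYC did not pass. Genes that damp MAP kinase signalling gave 12 higher and 3 lower, with a median log2 of 0.13 over 21, among them the phosphatase DUSP6 with 283 and 287 CPM with PRT4165, against 168 and 165 CPM with Scramble (log2 0.77, edgeR adjusted p = 1.8e-16), and SPRY1, which fell (log2 -0.64, edgeR adjusted p = 1.2e-11). EGFR, the receptor of epidermal growth factor, had 73.6 and 72.8 CPM with PRT4165, against 45.8 and 44.5 CPM with Scramble (log2 0.70, edgeR adjusted p = 2.0e-12). Its ligand HBEGF rose by log2 0.64, its inhibitor ERRFI1 rose by 0.77, and the ligand EGF fell by 0.58 on the log2 scale. In that family of 14, 5 were higher and 2 lower, with a median log2 of 0.40, and 1 was lower when any 1 of the 4 libraries was left out.

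Genes of fatty acid uptake, storage and oxidation that answer to PPAR receptors were mostly higher, with 21 higher and 2 lower, with a median log2 of 0.26 over 35 tested, beside 19.9% and 21.7% over all genes. PDK4, the kinase that turns off pyruvate oxidation, had 26.5 and 25.6 CPM with PRT4165, against 9.36 and 8.86 CPM with Scramble (log2 1.51 ± 0.076 SE, edgeR adjusted p = 3.6e-14). ANGPTL4, an inhibitor of lipoprotein lipase, had 97.4 and 109 CPM with PRT4165, against 35.6 and 37.9 CPM with Scramble (log2 1.49 ± 0.051 SE, edgeR adjusted p = 1.1e-15). PLIN2, a coat protein of lipid droplets, had 425 and 421 CPM with PRT4165, against 191 and 192 CPM with Scramble (log2 1.14 ± 0.028 SE, edgeR adjusted p = 3.0e-20). The receptors themselves, picked after their values were seen, were higher by log2 0.80 (PPARD), 0.63 (PPARA) and 0.20 (PPARG). CPT1A, which admits fatty acids to mitochondria, was higher by log2 0.13, and CPT2 and ACADM did not pass. Sterol genes gave 13 higher and 4 lower, with a median log2 of 0.080 over 29, with the feedback gene INSIG1 higher by log2 0.49. The lower sterol genes numbered 1 without either Scramble library and 2 without either PRT4165 library. Fatty acid synthesis genes gave 3 higher and 8 lower, with a median log2 of -0.070 over 20; ACACB fell (log2 -0.52, edgeR adjusted p = 1.3e-06), LPIN1 rose (log2 0.43, edgeR adjusted p = 9.8e-10), and FASN and SCD did not pass. Without Scramble replicate 2, 5 were lower.

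Hypoxia and glycolysis genes split within the list, with 15 higher and 9 lower, with a median log2 of 0.030 over 35. ADM, the peptide adrenomedullin, had 80.3 and 82.7 CPM with PRT4165, against 27.7 and 28.6 CPM with Scramble (log2 1.53, edgeR adjusted p = 2.8e-19), NDRG1, a stress and differentiation gene, had 3326 and 3392 CPM with PRT4165, against 1227 and 1224 CPM with Scramble (log2 1.45, edgeR adjusted p = 6.8e-25), and VEGFA, the angiogenic growth factor, rose by log2 0.60. The lower members, picked after their values were seen, were mostly enzymes of glycolysis and fell by small amounts, GAPDH by 0.23, ENO1 by 0.21 and LDHA by 0.20 on the log2 scale. With the near-identical pairs summed, 3 of the 9 lower members were called. HIF1A did not pass (log2 -0.039, edgeR adjusted p = 0.31), and EPAS1, the second hypoxia factor, listed with the stemness genes, had 194 and 197 CPM with PRT4165, against 95.9 and 93 CPM with Scramble (log2 1.05, edgeR adjusted p = 2.0e-18).

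Of 14 aryl hydrocarbon receptor genes, 9 were higher and 2 lower, with a median log2 of 0.33; ALDH3A1 had 9.78 and 9.95 CPM with PRT4165, against 3.38 and 3.82 CPM with Scramble (log2 1.46, edgeR adjusted p = 2.6e-11), CYP1B1 rose by log2 0.47 and AHR itself by 0.42. The lower members were 1 without PRT4165 replicate 1 and 1 without Scramble replicate 2. Over 40 genes of the NRF2 and glutathione response the calls were 16 higher and 12 lower, with a median log2 of -0.020. AKR1C1 and AKR1C3, near-identical aldo-keto reductases whose reads the counting could have split, had 3.52 and 3.45 CPM with PRT4165, against 0.614 and 0.623 CPM with Scramble (log2 2.49) and 6.74 and 6.12 CPM with PRT4165, against 1.93 and 2.07 CPM with Scramble (log2 1.69). The classical targets NQO1, TXNRD1, SRXN1 and GCLC did not pass, and HMOX1, picked after its value was seen, rose (log2 0.73, edgeR adjusted p = 2.1e-09). Without Scramble replicate 2, 5 of the 12 lower members were called.

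Of 27 heat shock chaperones 3 were higher and 17 lower, with a median log2 of -0.15, with HSPA4, DNAJA1 and TCP1 lower by log2 -0.35, -0.35 and -0.33 and DNAJB4 higher by 0.72. Of 27 ER chaperones 4 were higher and 13 lower, with a median log2 of -0.12, with DNAJB11 (-0.41) and CALR (-0.19) lower and the sensor kinase EIF2AK3 higher (0.68). Of 30 proteasome subunits none was higher and 24 were lower, with a median log2 of -0.18. The lowest was PSMA3 (157 ± 2.22 CPM with PRT4165 and 191 ± 5.098 CPM with Scramble, log2 -0.28, edgeR adjusted p = 1.0e-06), and the highest of the 30 was at log2 -0.040. With the near-identical pairs summed, 15 proteasome subunits and 8 ER chaperones were lower. Mitochondrially encoded genes gave 0 higher and 7 lower, with a median log2 of -0.20 over 13, MT-CYB and MT-ND1 falling by 0.36 and 0.35 on the log2 scale. The ATF4 list of amino acid and stress genes gave 11 higher and 13 lower, with a median log2 of 0.010 over 40: VLDLR (1.297) and DDIT4 (1.25) rose, and ATF5 (-0.49) and PHGDH (-0.47), the first enzyme of serine synthesis, fell. Metallothionein and zinc transport genes gave 3 higher and 2 lower, with a median log2 of 0.040 over 14, with the zinc exporter SLC30A1 at 80.8 and 78.2 CPM with PRT4165, against 48.1 and 47.2 CPM with Scramble (log2 0.74, edgeR adjusted p = 1.0e-12). Without either Scramble library 1 of them was lower.

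Replication genes were mostly lower. Of 43 genes of DNA replication and the G1/S step, 3 were higher and 34 lower, with a median log2 of -0.28, beside 21.7% of all genes called lower. TYMS, which makes thymidylate, had 195 and 187 CPM with PRT4165, against 269.9 and 268 CPM with Scramble (log2 -0.49, edgeR adjusted p = 2.2e-12). MCM2 and MCM3, subunits of the replicative helicase, had 151 and 159.6 CPM with PRT4165, against 212 and 209.7 CPM with Scramble (log2 -0.44, edgeR adjusted p = 5.9e-11) and 253 and 249 CPM with PRT4165, against 311 and 307 CPM with Scramble (log2 -0.30, edgeR adjusted p = 2.4e-09). SLBP, which binds histone messenger RNA, had 116 and 115 CPM with PRT4165, against 149 and 147 CPM with Scramble (log2 -0.35, edgeR adjusted p = 1.1e-09). The differences were below 1.5-fold but each PRT4165 library was below each Scramble library in these 4 genes. Of 41 mitosis genes 6 were higher and 15 lower, with a median log2 of -0.030; CDC20 fell (log2 -0.25, edgeR adjusted p = 3.5e-07), KIF4A rose (log2 0.25, edgeR adjusted p = 7.3e-07), and CDK1, PLK1 and TOP2A did not pass. The lower mitosis genes numbered 8 without PRT4165 replicate 2, 9 without Scramble replicate 1 and 8 without Scramble replicate 2. Cell cycle inhibitors and p53-type stress genes gave 14 higher and 9 lower, with a median log2 of 0.030 over 35. CDKN1A, the p21 inhibitor, had 28.9 and 29.99 CPM with PRT4165, against 16.02 and 14.5 CPM with Scramble (log2 0.94, edgeR adjusted p = 2.6e-12), CDKN2B rose by log2 0.51, and CDKN2C had 33.3 and 36.3 CPM with PRT4165, against 65.8 and 68.04 CPM with Scramble (log2 -0.94, edgeR adjusted p = 2.9e-14). Fewer cells in a stage of the cycle and less RNA of these genes per cell cannot be told apart in bulk RNA. The replication-dependent histone genes, which near-identical copies and the selection of polyadenylated RNA make uncertain, gave 8 higher and 0 lower, with a median log2 of 0.50 over 14, with H2BC5 higher by log2 1.05 and H2AC6 by 0.74. In the BCL2 family BCL2A1, a survival gene, rose (log2 2.32, edgeR adjusted p = 7.1e-09) and HRK, a death gene, fell (log2 -1.71, edgeR adjusted p = 0.00099), both at low levels, while BCL2 fell by 0.34 on the log2 scale. Over the 17 family members the calls were 4 higher and 5 lower, with a median log2 of 0.030, and with 1 library left out 2 to 4 were higher and 2 to 3 lower.

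**Figure D4:**
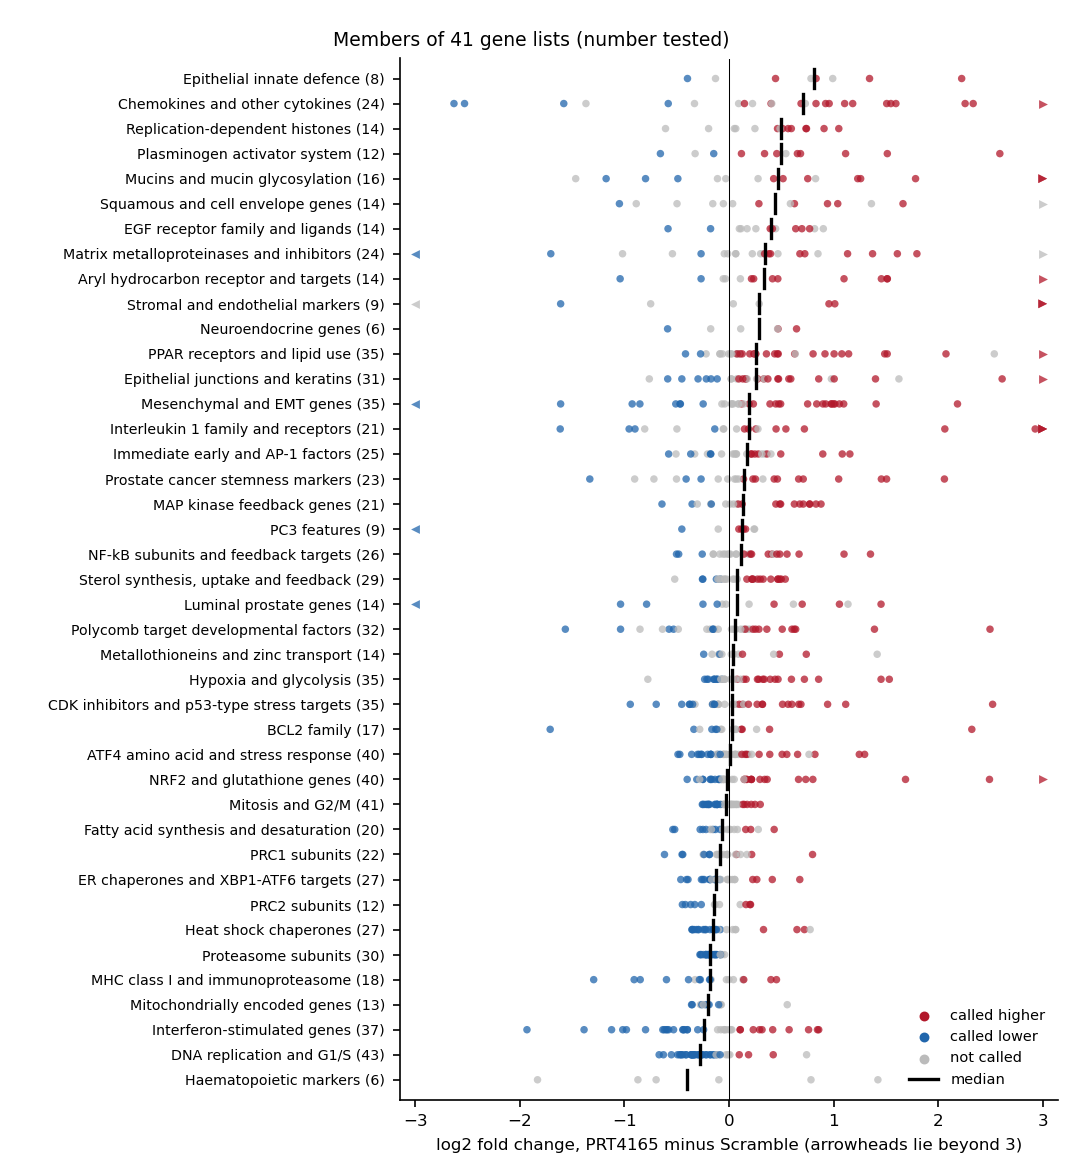
Log2 fold change of PRT4165 over Scramble for the tested members of 41 gene lists, sorted by their medians (black bars), with the number tested in brackets; red and blue points were called higher and lower, grey points were not called, and arrowheads lie beyond 3 in either direction. The epithelial defence, chemokine, plasminogen, histone and mucin lists sit at the top, and the replication list lies to the left of 0 with 34 of 43 members blue.

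Genes of epithelial and of mesenchymal identity both moved in both directions. Of 31 epithelial genes 16 were higher and 6 lower, with a median log2 of 0.26. CDH1, the epithelial cadherin, had 40.9 and 40.5 CPM with PRT4165, against 15.3 and 15.6 CPM with Scramble (log2 1.401, edgeR adjusted p = 2.0e-16), and ELF3, an epithelial transcription factor, had 73.5 and 79.3 CPM with PRT4165, against 38.1 and 37.98 CPM with Scramble (log2 1.01, edgeR adjusted p = 1.6e-15). KRT18 fell by 0.45 on the log2 scale. Of 14 squamous genes 5 were higher and 1 lower, with a median log2 of 0.44, with the transglutaminase TGM2 (1.66), SCEL (0.94), PPL (0.63) and EVPL (0.29) higher; the lower count ran from 0 to 2 with 1 library left out. Of 35 mesenchymal genes 19 were higher and 8 lower, with a median log2 of 0.19. THBS1, the matrix protein thrombospondin, had 29.2 and 27.4 CPM with PRT4165, against 10.9 and 10.5 CPM with Scramble (log2 1.41, edgeR adjusted p = 4.1e-15), the integrin ITGA5 rose by log2 1.001 and the collagen crosslinker LOXL2 by 0.98. CDH11 and COL5A2 (-0.93) fell, and VIM changed by log2 0.12 only. Of 23 stemness genes 11 were higher and 3 lower, with a median log2 of 0.14; the integrins ITGA2 and ITGA6 had 279 and 263 CPM with PRT4165, against 94.9 and 95.6 CPM with Scramble and 525 and 499 CPM with PRT4165, against 314 and 312 CPM with Scramble (log2 1.51 and 0.71), ALDH1A3 rose by log2 0.46 and CD44 by 0.14, while SOX2, KLF4 and PROM1 did not pass. Of 14 luminal prostate genes 4 were higher and 5 lower, with a median log2 of 0.080. STEAP2, a metalloreductase, rose by log2 0.70. Of 6 neuroendocrine genes tested 2 were higher and 1 lower, with a median log2 of 0.29, and CHGA and INSM1 had no count. SCG5, 1 of the higher ones, had an edgeR adjusted p of 0.0645 without PRT4165 replicate 1, 0.0863 without PRT4165 replicate 2 and 0.158 without Scramble replicate 2.

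None of 6 haematopoietic markers tested was called, and 9 others of that list had too few counts; 1 was higher without PRT4165 replicate 2. Of 9 stromal and endothelial markers 4 were higher and 1 lower, with a median log2 of 0.29 (0.41 with genes at 0 in a group set to their bound): ACTA2 (3.35 ± 0.0451 CPM with PRT4165 and 1.66 ± 0.101 CPM with Scramble), the endothelial receptor KDR (6.36 ± 0.0678 CPM with PRT4165 and 3.27 ± 0.327 CPM with Scramble), and DES and VWF at 12 and 10 counts at most per library were called higher, and COL3A1 was lower, at 0.391 CPM or less in each of the 4 libraries. The higher ones were 2 without PRT4165 replicate 2 and 2 without Scramble replicate 2 (DES had an edgeR adjusted p of 0.0584 and 0.113 there), and COL3A1 did not pass without PRT4165 replicate 1 (edgeR adjusted p = 0.0912) or Scramble replicate 1 (0.0816). VWF had 0 and 10 counts with PRT4165 and none with Scramble, so its call rested on PRT4165 replicate 2 and could only be higher. CDH5, CLDN5 and LUM, defining markers of endothelium and stroma, had 2 counts at most in each library.

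To see which of these differences other groups shared, PRT4165 was tested directly against GW-516 and against RNF2 shRNA1. These comparisons share the PRT4165 libraries with the main one, so their values are set side by side and not correlated. Against GW-516, 7594 genes were called (41.1%), 4246 higher with PRT4165 (23.0%) and 3348 lower (18.1%). Of these, 109 were at least 2-fold higher (0.590%) and 700 at least 2-fold lower (3.79%). Against RNF2 shRNA1, which lowered RNF2 to 12.02 CPM, 9827 genes were called (53.2%), of which 1059 were at least 2-fold higher with PRT4165 (5.73%) and 640 at least 2-fold lower (3.46%).

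Of 10870 genes at 5 CPM or more in PRT4165 or in the other libraries, 12 had both PRT4165 libraries at least 1.5-fold above all 8 others and 8 had both at least 1.5-fold below them. These 20 were found from their values, so the tests beside them are descriptions. On the upper side were the markers MUC5AC, FABP4 and IL1B together with MUC5B, C3, PDK4, VCAN, HPGD, SORT1, STK32A and the noncoding genes MIR3142HG and LINC00342. FABP4 averaged 354 CPM with PRT4165, 105 CPM with GW-516, 57.2 CPM with RNF2 shRNA1 and 25.5 CPM in the libraries labelled RNF2 shRNA2 and 27.6 CPM with Scramble (PRT4165 over GW-516: log2 1.76 ± 0.039 SE, edgeR adjusted p = 9.0e-20). VCAN, the matrix proteoglycan versican, averaged 41.4 CPM with PRT4165, 18.2 CPM with GW-516, 8.8 CPM with RNF2 shRNA1 and 6.88 CPM in the libraries labelled RNF2 shRNA2 and 9.47 CPM with Scramble (PRT4165 over GW-516: log2 1.18 ± 0.060 SE, edgeR adjusted p = 9.7e-14). HPGD, which breaks down prostaglandins, averaged 27.6 CPM with PRT4165, 13 CPM with GW-516, 8.401 CPM with RNF2 shRNA1 and 7.54 CPM in the libraries labelled RNF2 shRNA2 and 10.6 CPM with Scramble (PRT4165 over GW-516: log2 1.08 ± 0.078 SE, edgeR adjusted p = 1.0e-10). In each of these GW-516 was next in order below PRT4165. The same held for MUC5AC, MUC5B and IL1B, which averaged 8.68, 60.9 and 232 CPM with GW-516. With PRT4165 they averaged 15.3, 135 and 487 CPM, against 0.557, 9.9 and 46.9 CPM with Scramble. SORT1, the sorting receptor sortilin, was 1.79-fold above GW-516 (log2 0.84 ± 0.049 SE, edgeR adjusted p = 1.2e-12).

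MMP13, MMP1, MUC13, SERPINB7, SCN3A, RELN, ZSCAN31 and LINC00326 made up the lower side. MMP13 averaged 1.45 CPM with PRT4165, 5.81 CPM with GW-516, 43.5 CPM with RNF2 shRNA1 and 13.97 CPM in the libraries labelled RNF2 shRNA2 and 40.5 CPM with Scramble (PRT4165 over GW-516: log2 -1.98 ± 0.12 SE, edgeR adjusted p = 6.6e-12). MMP1 differed from GW-516 by log2 -1.97 ± 0.062 SE, edgeR adjusted p = 1.3e-17, and from RNF2 shRNA1 by log2 -1.43 ± 0.065 SE, edgeR adjusted p = 1.9e-15. MUC13, a mucin that stays on the cell surface, averaged 12.7 CPM with PRT4165, 42.1 CPM with GW-516, 52.5 CPM with RNF2 shRNA1 and 33.1 CPM in the libraries labelled RNF2 shRNA2 and 22.1 CPM with Scramble. Among the 5 group means, MUC5AC and MUC5B were highest and MUC13 was lowest with PRT4165.

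**Figure D5:**
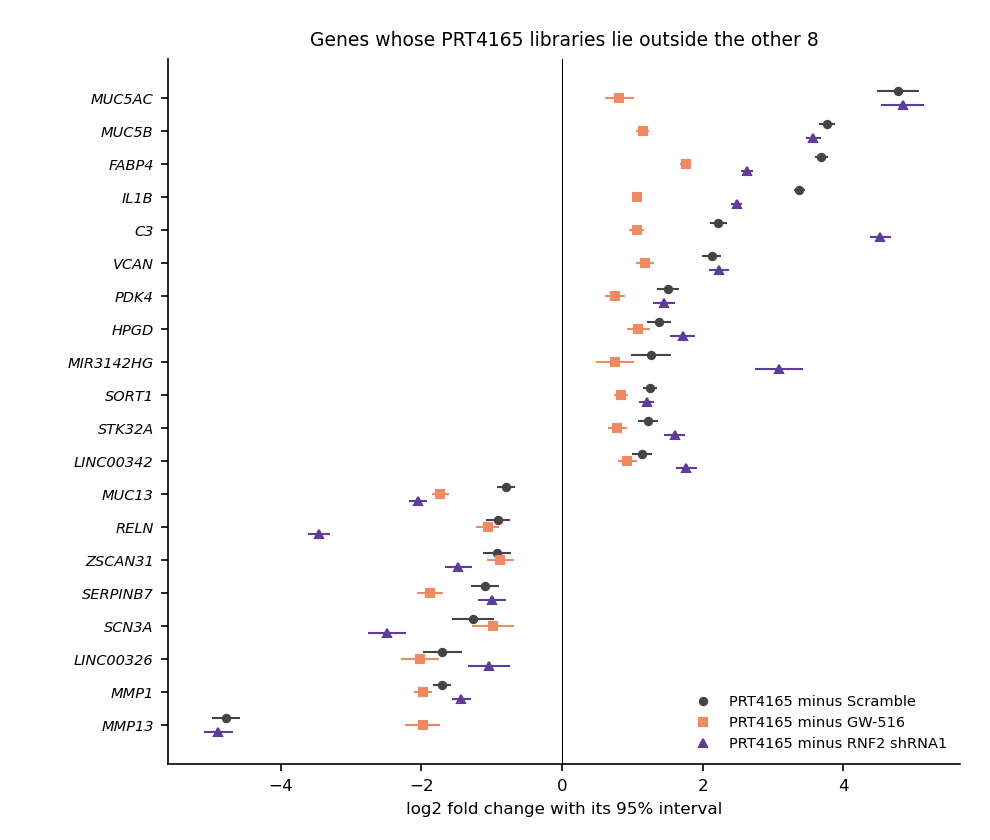
Log2 fold change with its 95% interval of PRT4165 over Scramble (circles), over GW-516 (squares) and over RNF2 shRNA1 (triangles) for the 20 genes whose PRT4165 libraries lay outside all 8 others by at least 1.5-fold, sorted by the first. All 3 values of a gene lie on the same side of 0, as the choice of genes requires. The distance from GW-516 is the shortest in all genes except MMP1, MUC13, SERPINB7, RELN and LINC00326.

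Some other genes with large changes against Scramble were at a like level, or further from Scramble, with GW-516. C15orf48 averaged 7.33 CPM with PRT4165, 7.23 CPM with GW-516 and 0.6998 CPM with Scramble (PRT4165 over GW-516: log2 0.019 ± 0.11 SE, edgeR adjusted p = 0.91, 95% interval -0.21 to 0.25). APOBEC3G likewise averaged 8.89, 9.32 and 1.24 CPM in the same 3 groups. In that order, TCIM averaged 9.02, 10.3 and 0.942 CPM, DEPP1 9.08, 16.9 and 1.39 CPM, and KRT6A 6.45, 12.6 and 0.796 CPM. CPA4 was at 72.3 CPM with GW-516 (log2 -1.89 ± 0.056 SE, edgeR adjusted p = 6.7e-18). CDKN1A was lower with PRT4165 than with GW-516, at 29.4 against 70.96 CPM (log2 -1.27 ± 0.053 SE, edgeR adjusted p = 2.3e-15), and so was ATF3, at 19.05 against 50.9 CPM (log2 -1.42 ± 0.052 SE, edgeR adjusted p = 2.6e-16). Wide gaps in that direction, picked after their values were seen, were in WNT9A and FOS: WNT9A averaged 3.19 CPM with PRT4165, 27.4 CPM with GW-516 and 2.14 CPM with Scramble, and FOS averaged 1.5, 12.9 and 1.34 CPM in the same 3 groups. AKR1C1 (-2.77), GDF15, a stress cytokine (-2.298), and HMOX1 (-1.74) were also lower than with GW-516 on the log2 scale.

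The PRT4165 libraries differed more from each other than the Scramble libraries did. Over 10739 genes at 5 CPM or more, the median absolute log2 difference between replicates was 0.061 with PRT4165 and 0.034 with Scramble, and 6 genes differed by 1.5-fold or more with PRT4165 and none with Scramble. NPW, IER5L, PRR7 and CCDC85B were among those higher in replicate 2, and none of the 4 was called against Scramble. NPW had 3.19 and 6.01 CPM with PRT4165, against 6.28 and 5.99 CPM with Scramble. Among genes higher in replicate 1 were MMP13, TMPRSS15 and INKA2, by 0.56, 0.39 and 0.39 on the log2 scale, and all were called against Scramble. C6orf136 and GPR155, also higher in replicate 1, were not called. The genes above with the largest changes were far outside the spread between replicates, but their choice required no overlap between PRT4165 and Scramble libraries.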

How the data were processed

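RNA-seq counts of 10 PC3 libraries were used. Per the labels' protocols, total RNA was taken from cells that stably expressed a hairpin or were treated for 48 hours, and strand-specific mRNA libraries were sequenced as paired ends. The authors deposited unnormalized counts, 1 value per gene. Per the file headers, the authors counted with featureCounts 1.4.3-p1, strand option 2 and GENCODE 18, with no option for pairs, so both ends of 1 fragment add to the count and counting noise is understated. STAR, DESeq2 1.8.1 and build GRCh37 are named per the submitters' processing notes. Per the file headers, all libraries carry the short name MDV3, whose relation to the labelled PC3 is not stated. Symbols were found for 51812 of 57445 IDs (90.2%).

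The test was edgeR 4.0.16 in R 4.3.3: TMM scaling (factors 0.972 to 1.05), filterByExpr with a minimum count of 10, a group-means model of the 10 libraries with 5 residual degrees of freedom, two-sided robust quasi-likelihood F tests and Benjamini-Hochberg adjustment over 18478 genes, called below 0.05. The fit was tested on simulated counts. The libraries compared, the 41 lists (1136 entries, 24 without an ID) and the naming rule were chosen with earlier results of these data known. The rule named 178 genes: the 4 markers, RNF2, RING1, BMI1, EZH2, CCL2, CDKN1A and ATF3, the 12 largest increases and decreases among called genes with a symbol, 5 CPM in 1 group and no overlap between libraries, and from each list at most 4 members, those of smallest adjusted p. Genes named beyond it were chosen after their values were seen. Promoter windows are RefSeq, GRCh38.p14. Tried instead were DESeq2 1.42.0, limma-voom (limma 3.58.1), RLE size factors, no filter, a filter of 1 CPM in 2 libraries, the 4 libraries alone, no RNF2 shRNA2 libraries, a 2-fold minimum, an adjusted p below 0.01, the replicate number as a block, near-identical pairs summed, counts thinned to the lowest total and each library left out. Python 3.11.15, pandas 2.3.3, numpy 2.4.6 and matplotlib 3.10.9 made the tables and figures. Some genes are not reported here.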

Additional observations from a re-analysis of the deposited data

How the results depend on the processing

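Under the alternatives the number of genes called for PRT4165 against Scramble was 4911 with the near-identical pairs summed (2358 lower), where fewer samples enter the fit, and 880 with a 2-fold minimum (598 higher and 282 lower). Under the rest it stayed within 1.5 times the 7695 reported, from 5920 at an adjusted p below 0.01 to 8270 without the libraries labelled RNF2 shRNA2, with 6900 by DESeq2 and 7519 by limma-voom. Leaving out 1 library gave 5937 to 6812 calls, with 3081 to 3466 higher and 2806 to 3376 lower. It gave 5666 to 6850 calls against GW-516 (3210 to 3862 higher, 2456 to 2988 lower) and 8401 to 9088 against RNF2 shRNA1 (4225 to 4675 higher, 4037 to 4413 lower). Same-numbered libraries of different groups did not deviate together (correlations -0.0884 to 0.0161 over 13104 genes), and with the replicate number as a block 7517 genes were called against Scramble, 7419 against GW-516 and 9724 against RNF2 shRNA1. Sign changes were counted only for genes called in the main fit or in the alternative. Of the 178 rule-named genes none showed such a change under any alternative run. Besides the 2-fold minimum, which 112 of them did not reach, most lost calls came with the pairs summed (6 genes: MTF1, MCL1, SCG5, MT-CO1, CD44 and VIM) or with 1 library left out (3 genes each time). Changes of small size, such as those of the replication, proteasome and chaperone genes, rest on depth and on close replicates, and genes below about 1 CPM on few counts.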

Other observations

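Some differences between PRT4165 and Scramble were set by Scramble alone. NLGN4X, a synaptic adhesion gene, had 20 and 20 counts in the Scramble libraries and none in the other 8. PHACTR3 had 26 and 20 counts with Scramble and 2 at most in any other library, and DPPA2 had 13 and 12 counts with Scramble and 6 at most elsewhere. Against a floor of 3 counts over the PRT4165 group, the 3 genes were at least 14.4-fold, 16.5-fold and 9.01-fold lower with PRT4165. They had no count with PRT4165 and passed the filter only through the Scramble libraries, so they could only be lower. By the measure used for PRT4165, both libraries at least 1.5-fold outside the other 8, PRT4165 had 12 genes above and 8 below, GW-516 114 and 9, RNF2 shRNA1 199 and 190, the libraries labelled RNF2 shRNA2 23 and 132, and Scramble 10 and 19.

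On the other side, 26 called genes had counts with PRT4165 and none with Scramble, all at low levels. A gene with no Scramble count passes the filter only through other libraries and can only be higher, so this direction was set in advance. The keratin genes KRT79 and KRT85 had 13 and 13, and 8 and 10, counts with PRT4165, and 31 and 31, and 9 and 22, counts with GW-516. APOBEC3H, a relative of APOBEC3G in the same gene family, had 18 and 8 counts with PRT4165 and 20 and 28 counts with GW-516, against none with Scramble (at least 7.89-fold higher). LSP1, known from leukocytes, had 12 and 8 counts with PRT4165 and 15 and 10 with GW-516, against none with Scramble. All of these genes were chosen after their values were seen.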
